A study of Homo sapiens with 6 samples.

Results

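The 42 genes described here encode the machinery that copies DNA and the supply of its building blocks. They were taken by symbol from a list of origin licensing, helicase, polymerase, nucleotide supply and E2F-driven S phase genes, out of 20263 genes in the deposited count table. All 42 had a row in the table, and all 42 passed the filter on low counts that left 12690 genes to test. Their counts ran from 346 to 22819 per gene and library.

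The cells were MV4-11, an established human acute myeloid leukemia line with an activating FLT3 duplication and a rearranged KMT2A gene, labelled wild type for genotype. All were kept in culture with drug for 24 h. The groups were the combination of venetoclax (VEN) and CSA, venetoclax alone at 100 nM, and CSA alone at 2.5 µM, with 2 libraries each. The doses used in the combination are not given separately in the labels. Venetoclax blocks the survival protein BCL2, and CSA, cyclosporine A, inhibits calcineurin. The study asked what the 2 drugs do together in cells with mutant FLT3. Untreated cells are not analysed here, so each drug alone is set against the other drug, never against no drug. Nothing in the labels says that replicates were separate cultures, and p-values therefore cover the spread among these libraries, which may be technical.

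Replication starts when the origin recognition complex, CDC6 and CDT1 load the MCM2 to MCM7 ring onto DNA in G1 phase. CDC45 and the GINS complex then turn that ring into an active helicase, primase and the polymerases copy both strands, and the PCNA clamp, set on DNA by replication factor C, holds the polymerases in place. Most of these genes are switched on before S phase by E2F transcription factors, which the retinoblastoma protein restrains until cyclin-dependent kinases free them. Rapidly dividing leukemia cells carry abundant messages of this kind.

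E2F factors are known to bind promoters of this class, and the 250 bases before the start site are shown for 4 of the genes, from RefSeq (GRCh38.p14), 5′ to 3′ on the strand of the gene. TYMS and ORC1 are among the genes lowest with the combination, and E2F1 is the founding family member. MCM10 is shown as a gene with no match. Its log2 fold change against venetoclax, −0.87, was below those of TYMS (−0.83) and ORC1 (−0.55). Against CSA it was −0.39, above those of TYMS (−0.58) and ORC1 (−0.54). The capitals mark each match to TTGGCGC or TTCCCGC or TTCGCGC or TTGCCGC on either strand, where matches may overlap each other.
TYMS, chr18:657403-657652, plus strand: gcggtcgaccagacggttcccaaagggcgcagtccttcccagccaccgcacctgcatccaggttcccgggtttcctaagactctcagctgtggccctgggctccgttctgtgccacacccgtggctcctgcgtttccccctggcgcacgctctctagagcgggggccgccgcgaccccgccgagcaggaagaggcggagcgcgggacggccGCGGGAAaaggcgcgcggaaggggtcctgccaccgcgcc
ORC1, chr1:52404424-52404673, minus strand: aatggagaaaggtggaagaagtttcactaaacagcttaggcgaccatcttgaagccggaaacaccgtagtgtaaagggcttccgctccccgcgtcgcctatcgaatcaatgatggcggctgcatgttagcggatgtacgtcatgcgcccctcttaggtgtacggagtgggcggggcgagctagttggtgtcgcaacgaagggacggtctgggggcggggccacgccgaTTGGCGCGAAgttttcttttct
E2F1, chr20:33686386-33686635, minus strand: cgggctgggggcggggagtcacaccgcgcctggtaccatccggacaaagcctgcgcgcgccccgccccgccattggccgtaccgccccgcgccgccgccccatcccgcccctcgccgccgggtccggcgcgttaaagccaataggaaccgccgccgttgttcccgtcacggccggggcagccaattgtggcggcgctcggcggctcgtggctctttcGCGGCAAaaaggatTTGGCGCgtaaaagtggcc
MCM10, chr10:13161308-13161557, plus strand: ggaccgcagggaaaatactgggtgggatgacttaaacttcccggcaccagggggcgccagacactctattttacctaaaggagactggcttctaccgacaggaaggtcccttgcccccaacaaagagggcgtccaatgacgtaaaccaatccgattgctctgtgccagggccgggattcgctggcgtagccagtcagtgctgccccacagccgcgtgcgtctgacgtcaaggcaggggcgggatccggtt
The TYMS match begins 39 bases before the start site. In ORC1 a pair of overlapping matches begin 22 and 19 bases before it, and in E2F1 they begin 33 and 19 bases before it. Of the 42 genes, 38 had an entry in the promoter table, with windows from 250 bases before to 50 bases after the start. An E2F match lay in a window of 31 of those 38 genes (81.6%), against 24.6% of 10141 tested genes and 15.3% of all 27305 genes with a window. At least 2 matches in a window were found for 14 of the 38 genes (36.8%), against 3.84% of tested genes. A CCAAT box (CCAAT, either strand) lay in a window of 23 of the 38 (60.5%), against 43.1% of tested genes. The cell cycle homology region (TTTGAA, either strand), a mark of genes expressed later in the cycle, lay in 2 of the 38 (5.26%), against 13.9% of tested genes. A match is a description of the letters and not a measured binding site. The list was chosen to include E2F-driven S phase genes, so a high E2F share was built into that choice and tests nothing.

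The label of the cells held in their markers. All 10 myeloid and MV4-11 markers, such as FLT3, CD33 and SPI1, were above 1 CPM in every library, and their sum lay between 2046 and 2210 CPM. The 3 T cell markers were at 0, the epithelial, fibroblast and erythroid markers each summed to at most 1.14 CPM, and the B cell markers summed to 1.78 to 3.42 CPM. Of the endothelial markers only PECAM1, which monocytes also express, was above 1 CPM in any library, and it lay at 95.7 CPM or higher. Library totals ran from 26567900 to 30738957 counts. Venetoclax replicate 2 stood apart, with 41.5% of its counts from mitochondrially encoded genes against 7.41% to 15.2% in the other 5 libraries. The main counts below are therefore also given without that library.

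The replication genes were lower with the combination than with either drug on its own, by a modest amount as a median, and no single gene passed edgeR's adjusted test, while DESeq2 called 3 of them against venetoclax. CPM is the count scaled to library depth, here with the TMM factors of edgeR, which hold the bulk of genes level, and fold changes are on the log2 scale with standard errors (SE) from edgeR's quasi-likelihood fit of all 6 libraries. Against venetoclax, 38 of the 42 genes had a negative log2 fold change, with a median of −0.39, while over all genes tested the median was −0.01 and 50.9% were negative. Against CSA, 38 of the 42 were again negative, with a median of −0.27, beside −0.00 and 50.3% over all genes. The 2 comparisons share the combination libraries. Where a pair of fold changes is given for a single gene, the first is against venetoclax and the second against CSA. In bulk RNA, fewer cells in S phase and less of each message per cell cannot be told apart.

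In edgeR's test 0 of the 42 genes had an adjusted p under 0.05 in the combination against venetoclax, where 0.0% of all genes did. In the combination against CSA and in venetoclax against CSA the count was also 0 of 42, again beside 0.0% of all genes in each. At an unadjusted p under 0.05, 16 of the 42 genes (38.1%) were lower in the combination than in the venetoclax libraries and 0 were higher. Of all genes tested, 5.48% were lower and 5.33% higher. Against CSA the count was 5 of 42 (11.9%) lower and 0 higher, beside 1.69% of all genes lower and 1.95% higher. Over all genes, 1372 had an unadjusted p under 0.05 against venetoclax and 462 against CSA. DESeq2 called 3 of the 42 genes lower with the combination than with venetoclax, namely TYMS, MCM10 and RRM2, where it called 1.09% of all genes lower. Against CSA, DESeq2 called 0 of the 42, and 0.213% of all genes lower.

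The counts moved when single libraries were left out. Without venetoclax replicate 1, so that the library with the high mitochondrial share stood for the group, edgeR called 17 of the 42 lower with the combination than with venetoclax and CDT1 higher, while 13.3% of all genes were called lower and 13.1% higher. At an unadjusted p under 0.05, 3 were lower than with venetoclax without combination replicate 1 or 2, beside 2.13% and 2.12% of all genes. Without CSA replicate 1 or 2 the count was 5, beside 2.76% and 2.8%. Against CSA, the count was 0 without combination replicate 1 or 2, beside 1.24% and 1.03% of all genes, and 0 without CSA replicate 1 or 2, beside 0.702% and 0.673%.

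Both combination libraries lay below both venetoclax libraries for 25 of the 42 genes, beside 18.9% of all genes tested, above both for ORC6 alone, and the groups overlapped for the other 16. Against CSA, both combination libraries were the lower for 33 of the 42, beside 23.7% of all genes, and the groups overlapped for the other 9. Both combination libraries lay below all 4 single-agent libraries for 22 of the 42 (52.4%), where 9.73% of all genes did so, and above all 4 for 0 of the 42. For the combination above the other libraries, the share of all genes was not counted. The combination had the lowest group mean for 35 of the 42 genes, venetoclax for 3 and CSA for 4. Over all genes tested, these shares were 29.9% for the combination, 39.2% for venetoclax and 30.9% for CSA. The 42 genes together took 0.677% and 0.640% of the nuclear gene counts in the combination libraries, 0.889% and 0.749% with venetoclax, and 0.812% and 0.799% with CSA. The combination libraries held the smallest shares, and neither overlapped a single-agent library. The highest library of a gene was venetoclax replicate 1 for 19 of the 42, venetoclax replicate 2 for 18, where 13.4% and 35.6% of all genes were highest in those libraries, a CSA library for the other 5, and never a combination library. Over all genes tested, 14.9% and 12.9% were highest in combination replicates 1 and 2.

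**Figure D1:**
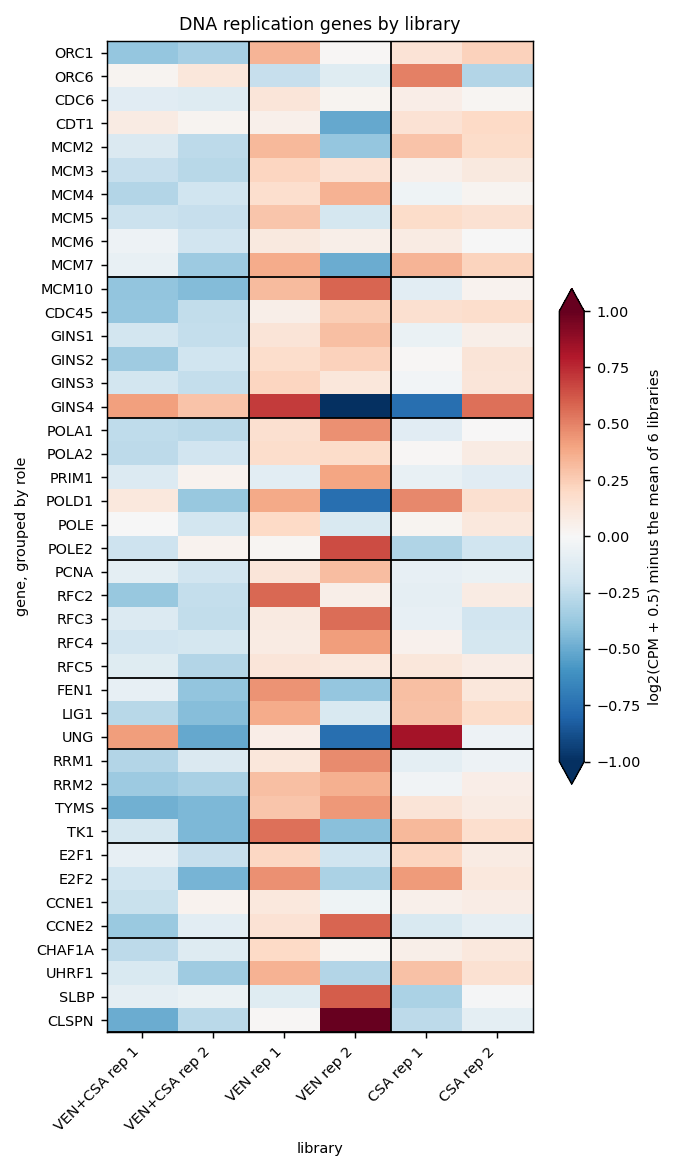
Level of each of the 42 genes (rows, grouped by role) in each library (columns), as log2(CPM + 0.5) minus the gene's mean over the 6 libraries, with colours cut off at 1 in either direction. Blue is below the mean, and the library medians were −0.19 and −0.24 with the combination, 0.18 and 0.08 with venetoclax and 0.05 and 0.08 with CSA.

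The direction against venetoclax depended in part on which venetoclax library was kept. Without venetoclax replicate 1 the median of the 42 genes was −0.35 against venetoclax, and 30 were negative, beside 6318 of all 12956 genes. Without venetoclax replicate 2 the median of the 42 genes was −0.39 against venetoclax and −0.27 against CSA, and 38 were negative in each. The count lower at an unadjusted p under 0.05 was then 26 of 42 (61.9%) against venetoclax, beside 7.17% of all genes, and 21 of 42 against CSA, beside 5.71%. After adjustment edgeR still called 0 of the 42 in either comparison, while it called 0.379% of all genes against venetoclax and 0.185% against CSA. DESeq2 without that library called 12 of the 42 lower against venetoclax, with 1.59% of all genes lower, and 8 against CSA, with 0.981%. The 12 were FEN1, MCM3, MCM2, RRM2, TYMS, ORC1, UHRF1, MCM10, TK1, MCM5, RFC2 and LIG1. The 8 were MCM2, TYMS, ORC1, UHRF1, CDC45, TK1, MCM5 and LIG1. The single venetoclax library left in these fits is assumed to vary like the other groups.

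**Figure D2:**
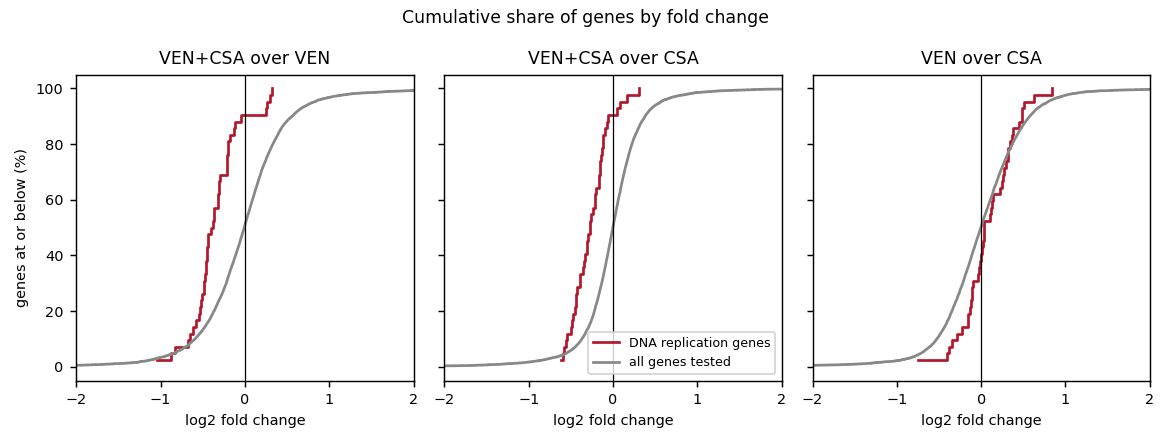
Percentage of genes (vertical) at or below each log2 fold change (horizontal, drawn from −2 to 2) for the 42 DNA replication genes and for all 12690 genes tested, in the 3 comparisons. The curve of the 42 genes lies left of that of all genes over most of its length in both comparisons with the combination, with medians of −0.39 and −0.27, and near it in venetoclax over CSA, with a median of 0.03.

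Nucleotide supply held the lowest medians of the 8 role groups with all 6 libraries, with values over its 4 genes of −0.60 against venetoclax and −0.46 against CSA. Against CSA the flap, ligation and base excision genes were close, at −0.44. They were the lower group without combination replicate 1 (−0.67 against −0.45) and without CSA replicate 2 (−0.65 against −0.45). TYMS, thymidylate synthase (ENSG00000176890, chr18:657604-673578 in GRCh38), makes the thymidine nucleotide for DNA. It had 57.0 and 58.4 CPM with the combination, against 97.2 and 108 CPM with venetoclax and 87.5 and 84.8 CPM with CSA. Both combination libraries lay well below the other 4, which did not overlap them. The log2 fold change was −0.83 (SE 0.15, 95% interval −1.20 to −0.47) against venetoclax, with an adjusted p of 0.188 in edgeR and 0.00101 in DESeq2. Against CSA it was −0.58 (SE 0.15, 95% interval −0.94 to −0.21), with an edgeR adjusted p of 1.00. TYMS shares 967 of its 2470 exon bases with the opposite-strand gene ENOSF1, and the sources used here do not say whether reads were told apart by strand. ENOSF1 differed in the other direction, without passing the test, with 52.3 and 51.7 CPM with the combination, against 40.2 and 41.7 CPM with venetoclax and 45.4 and 51.6 CPM with CSA (log2 fold change 0.34, SE 0.16, against venetoclax).

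RRM2 and RRM1, the small and large subunits of ribonucleotide reductase, turn ribonucleotides into deoxyribonucleotides. RRM2 (chr2:10120698-10131419 in GRCh38) had 236 and 242 CPM with the combination, against 373 and 389 CPM with venetoclax and 295 and 317 CPM with CSA. The 3 groups were fully separate, with venetoclax highest. The log2 fold changes were −0.67 (SE 0.14) against venetoclax, with an adjusted p of 0.228 in edgeR and 0.00702 in DESeq2, and −0.36 (SE 0.14) against CSA. RRM1 had 223 and 248 CPM with the combination, against 295 and 379 CPM with venetoclax and 255 and 264 CPM with CSA. Both combination libraries were the lowest, with fold changes of −0.52 (SE 0.18) against venetoclax, −0.32 without its replicate 2, and −0.14 (SE 0.18) against CSA. TK1, thymidine kinase of the salvage route, had 63.0 and 52.2 CPM with the combination, against 104 and 53.3 CPM with venetoclax and 89.6 and 80.0 CPM with CSA. Venetoclax replicate 2 was as low as the combination, so those groups overlapped, while both CSA libraries were higher. The fold change of TK1 against venetoclax was −0.45 (SE 0.33) with both libraries, −0.85 without venetoclax replicate 2 and 0.11 without its replicate 1.

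**Figure D3:**
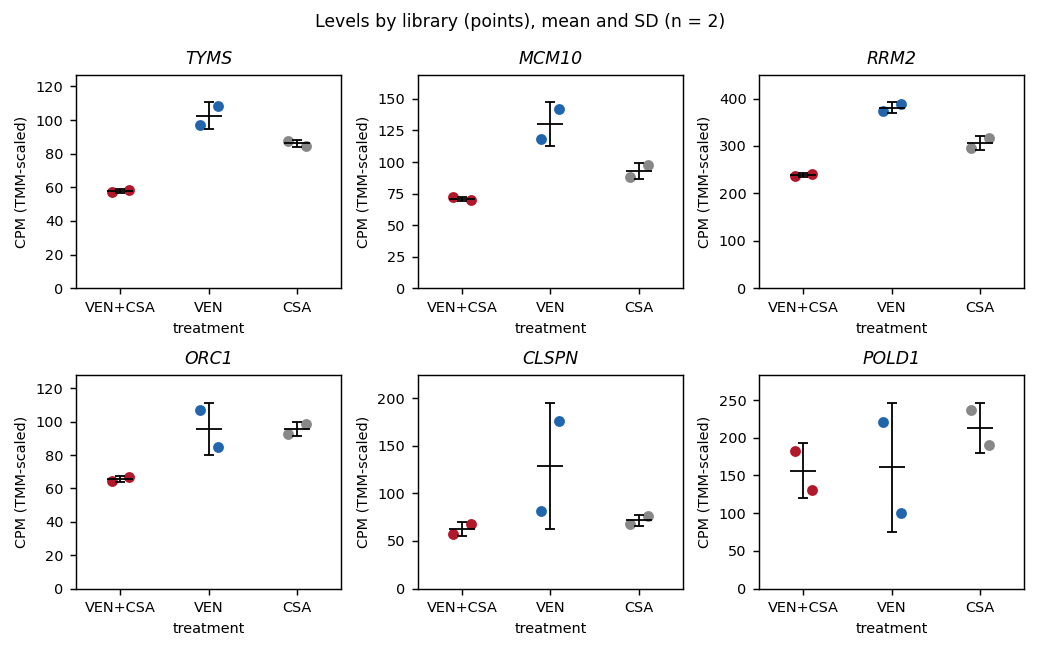
TMM-scaled CPM (vertical, from 0) of 6 genes by treatment, with each library as a point and the group mean and SD (n = 2) as bars. TYMS, MCM10, RRM2 and ORC1 are lowest in both combination libraries, CLSPN has 1 venetoclax library at 176 CPM, and POLD1 overlaps between the combination and venetoclax.

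Origin licensing comprised 10 genes. Of these, 8 were lower in the combination than in the venetoclax libraries (median −0.21) and all 10 were lower than with CSA (median −0.28). The median against venetoclax was −0.44 without venetoclax replicate 2 and −0.10 without its replicate 1, with 8 and 6 genes lower. ORC1 (chr1:52372829-52404459 in GRCh38), the largest subunit of the origin recognition complex, had 64.3 and 66.8 CPM with the combination, against 107 and 84.9 CPM with venetoclax and 92.5 and 98.6 CPM with CSA. The combination lay below every single-agent library, with fold changes of −0.55 (SE 0.17) against venetoclax, −0.70 without its replicate 2, and −0.54 (SE 0.17) against CSA. ORC6, another subunit, had 25.3 and 27.0 CPM with the combination, against 21.1 and 22.8 CPM with venetoclax and 35.5 and 20.1 CPM with CSA. It was the only member above both venetoclax libraries (0.25, SE 0.29), and its 2 CSA libraries lay on either side of the combination (−0.09, SE 0.29). CDT1, which brings the MCM ring to origins and is destroyed in S phase, had 122 and 117 CPM with the combination, against 119 and 80.5 CPM with venetoclax and 127 and 132 CPM with CSA. Only venetoclax replicate 2 was clearly low, and the fold changes were 0.26 (SE 0.22) against venetoclax, 0.01 without that library, and −0.12 (SE 0.22) against CSA. CDC6, the loader that joins the origin complex, differed little (−0.20, SE 0.14, and −0.17, SE 0.14), although both combination libraries were the lowest.

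The 6 ring subunits MCM2 to MCM7 were abundant, between 228 and 858 CPM in any library. MCM4 had 549 and 587 CPM with the combination, against 756 and 858 CPM with venetoclax and 654 and 685 CPM with CSA. MCM3 had 235 and 228 CPM with the combination, against 321 and 305 CPM with venetoclax and 286 and 295 CPM with CSA. Both were lowest in the combination and highest with venetoclax, with no overlap among the 3 groups. Their fold changes against venetoclax were −0.51 (SE 0.15) for MCM4 and −0.44 (SE 0.14) for MCM3, and against CSA −0.24 (SE 0.15) and −0.33 (SE 0.14). MCM2, MCM5, MCM6 and MCM7 had fold changes of −0.20 to −0.29 against venetoclax and −0.16 to −0.50 against CSA. For MCM2 and MCM7 the low venetoclax replicate 2 overlapped the combination, and without it their fold changes against venetoclax were −0.52 and −0.58. Without venetoclax replicate 1 they were 0.19 and 0.28. MCM5 lay at −0.49 without venetoclax replicate 2 and at −0.05 without its replicate 1.

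Helicase assembly and origin firing held 6 genes, of which 5 were lower against each drug, with medians of −0.46 against venetoclax and −0.31 against CSA. MCM10 (chr10:13161554-13211104 in GRCh38), which activates the assembled helicase, had 72.1 and 69.9 CPM with the combination, against 118 and 142 CPM with venetoclax and 88.3 and 97.4 CPM with CSA. The groups were separate in the order combination, CSA, venetoclax. Its fold change against venetoclax, −0.87 (SE 0.17), had an adjusted p of 0.203 in edgeR and 0.00262 in DESeq2, and against CSA it was −0.39 (SE 0.17). CDC45 (chr22:19479459-19520612 in GRCh38), the helicase cofactor, had 66.8 and 73.7 CPM with the combination, against 91.4 and 104 CPM with venetoclax and 97.9 and 98.9 CPM with CSA. It was lower by nearly the same amount against each drug (−0.48, SE 0.16, and −0.49, SE 0.16). GINS2 had 49.1 and 54.7 CPM with the combination, against 71.2 and 73.8 CPM with venetoclax and 63.4 and 68.9 CPM with CSA (−0.48, SE 0.15, and −0.35, SE 0.15). GINS1 and GINS3, its partners in the complex, also had both combination libraries lowest, with fold changes of −0.44 (SE 0.16) and −0.38 (SE 0.17) against venetoclax. GINS4, the last subunit, had 56.7 and 51.8 CPM with the combination, against 69.3 and 18.4 CPM with venetoclax and 24.9 and 62.3 CPM with CSA. Its replicates differed more than its groups, and the fold changes of 0.30 (SE 0.68) and 0.31 (SE 0.68) have intervals that reach from −1.38 to 2.00. Against venetoclax, the fold change of GINS4 was −0.35 without venetoclax replicate 2 and 1.56 without its replicate 1.

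**Figure D4:**
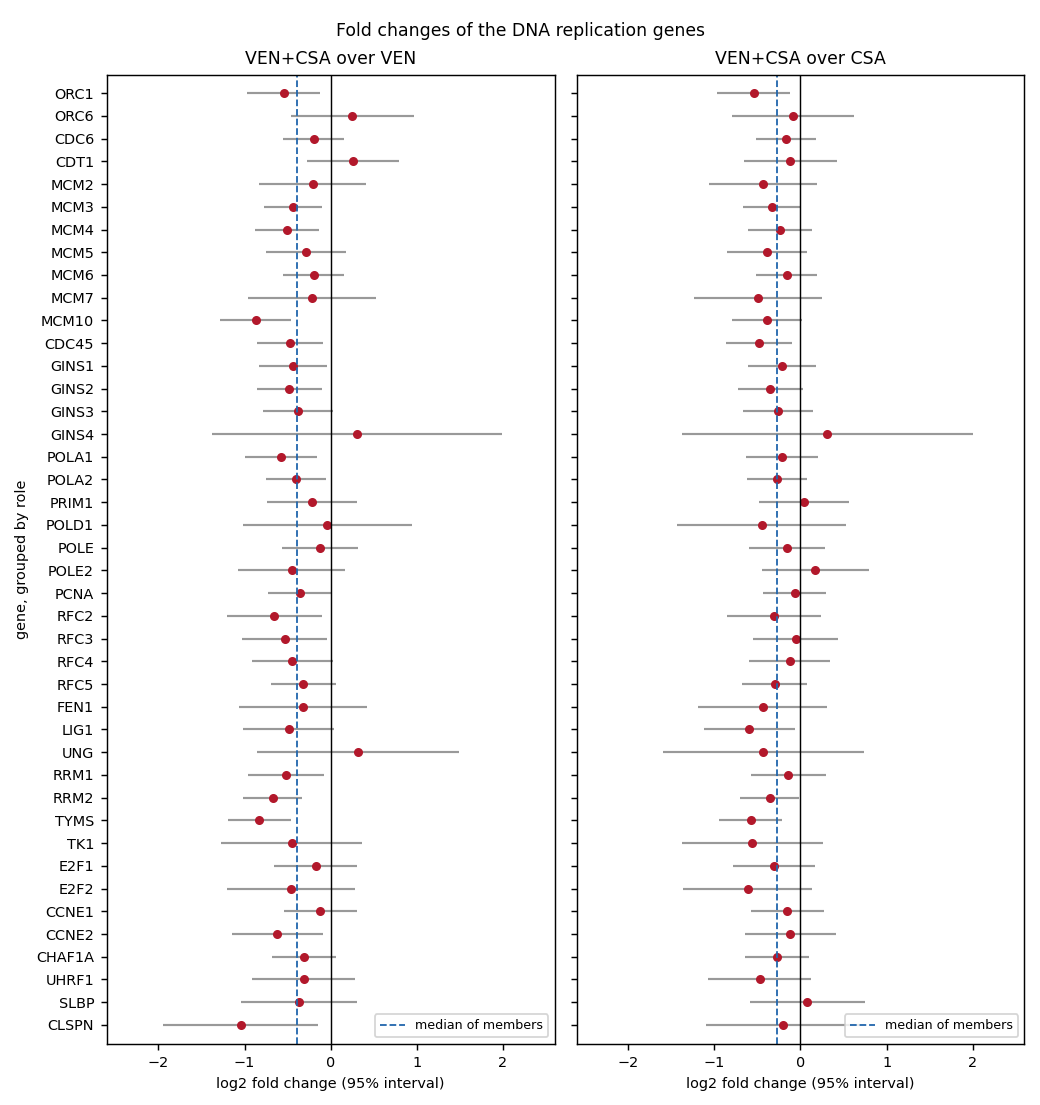
Log2 fold change (horizontal) of each of the 42 genes with its 95% interval, for VEN+CSA over VEN (left) and VEN+CSA over CSA (right), with the dashed line at the median of the genes. Most points lie left of 0, with medians of −0.39 and −0.27, and GINS4 and UNG have the widest intervals in both panels.

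Primase and the replicative polymerases comprised 6 genes. All 6 were lower against venetoclax (median −0.31) and 4 of 6 against CSA (median −0.19). POLA1, the catalytic subunit of polymerase alpha, which starts each new strand, had 54.7 and 54.1 CPM with the combination, against 72.9 and 89.8 CPM with venetoclax and 60.3 and 65.5 CPM with CSA. POLA2, its accessory subunit, had 74.7 and 78.6 CPM with the combination, against 101 and 102 CPM with venetoclax and 90.2 and 94.7 CPM with CSA. Both were lowest in the combination and highest with venetoclax without overlap, and their fold changes against venetoclax were −0.58 (SE 0.17) for POLA1 and −0.41 (SE 0.14) for POLA2. PRIM1, the primase that lays the RNA primer, had 52.5 and 59.2 CPM with the combination, against 53.7 and 76.0 CPM with venetoclax and 54.9 and 53.3 CPM with CSA. POLE2, a subunit of the leading-strand polymerase epsilon, had 33.4 and 39.4 CPM with the combination, against 38.9 and 60.9 CPM with venetoclax and 31.1 and 33.5 CPM with CSA. In both genes venetoclax replicate 2 was high and the other libraries lay close together, with fold changes of −0.22 (SE 0.21) and 0.04 (SE 0.21) for PRIM1 and −0.46 (SE 0.25) and 0.17 (SE 0.25) for POLE2. POLE, the catalytic subunit of the same polymerase, had 201 and 178 CPM with the combination, against 232 and 182 CPM with venetoclax and 206 and 218 CPM with CSA. Those groups overlapped against venetoclax, and its fold changes of −0.13 (SE 0.18) and −0.16 (SE 0.18) were smaller than their errors. Without venetoclax replicate 2, the fold changes against venetoclax were 0.06 for PRIM1, −0.09 for POLE2 and −0.29 for POLE. POLD1, the catalytic subunit of polymerase delta, had 182 and 130.2 CPM with the combination, against 221 and 100.2 CPM with venetoclax and 237 and 189.8 CPM with CSA. The combination lay between the 2 venetoclax libraries (−0.04, SE 0.40) and below both CSA libraries (−0.45, SE 0.40). The difference of POLD1 against venetoclax was −0.50 without venetoclax replicate 2 and 0.64 without its replicate 1, in which fit 4 of the 6 genes were lower.

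The clamp and its loader were lower against venetoclax in all 5 genes (median −0.45), and against CSA the median was −0.13. The median against venetoclax was −0.28 without venetoclax replicate 2, and that against CSA ran from −0.23 to −0.07 when single CSA libraries were left out. PCNA, the sliding clamp, had 244 and 229 CPM with the combination, against 284 and 324 CPM with venetoclax and 246 and 249 CPM with CSA. It was lower than venetoclax without overlap (−0.36, SE 0.15), and only just below CSA (−0.07, SE 0.15). RFC2 had 30.1 and 33.3 CPM with the combination, against 58.7 and 40.9 CPM with venetoclax and 37.0 and 41.6 CPM with CSA. RFC3 had 99.3 and 92.0 CPM with the combination, against 116 and 161 CPM with venetoclax and 103 and 95.6 CPM with CSA. Both loader subunits lay below venetoclax (−0.65, SE 0.22, and −0.54, SE 0.20), while RFC3 overlapped CSA (−0.06, SE 0.20). Against venetoclax, RFC2 was at −0.37 without venetoclax replicate 1, and RFC3 at −0.28 without its replicate 2. RFC4 and RFC5, further loader subunits, also lay below both venetoclax libraries (−0.45, SE 0.19, and −0.32, SE 0.15), with −0.27 for RFC4 without venetoclax replicate 2. Per kilobase of exon, PCNA was the most abundant member at 179 CPM, ahead of MCM6 at 103 CPM, and GINS3 was the least abundant at 5.03 CPM.

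The 3 genes of flap removal, ligation and base excision had medians of −0.32 against venetoclax and −0.44 against CSA. The median against venetoclax, which is the value of FEN1, was −0.68 without venetoclax replicate 2 and 0.16 without its replicate 1. Against CSA it was −0.67 without combination replicate 1 and −0.29 without combination replicate 2. LIG1, the DNA ligase that seals the fragments, had 121 and 109.7 CPM with the combination, against 191 and 132 CPM with venetoclax and 181 and 168 CPM with CSA. FEN1, the nuclease that trims their flaps, had 145 and 117 CPM with the combination, against 210.0 and 117 CPM with venetoclax and 189 and 166 CPM with CSA. Both lay below both CSA libraries (−0.59, SE 0.21, and −0.44, SE 0.30), and FEN1 overlapped venetoclax replicate 2. LIG1 lay below both venetoclax libraries (−0.49), with −0.72 without venetoclax replicate 2 and −0.19 without its replicate 1. UNG, which removes uracil from DNA, had 64.6 and 33.6 CPM with the combination, against 50.4 and 28.4 CPM with venetoclax and 86.1 and 46.3 CPM with CSA. Replicate 2 of UNG was the lower one in all 3 groups, which overlapped, and the fold changes were 0.32 (SE 0.47) against venetoclax, −0.03 without venetoclax replicate 2, and −0.43 (SE 0.47) against CSA.

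The 4 E2F and cyclin E genes, the regulators of the group, had medians of −0.32 against venetoclax, −0.03 without venetoclax replicate 1, and −0.23 against CSA. E2F1, the first of the activating E2F factors, had 63.3 and 57.2 CPM with the combination, against 77.6 and 58.4 CPM with venetoclax and 78.1 and 71.1 CPM with CSA. E2F2, a second activator, had 23.9 and 19.8 CPM with the combination, against 38.1 and 22.1 CPM with venetoclax and 37.2 and 29.7 CPM with CSA. Both lay below CSA without overlap (−0.31, SE 0.19, and −0.61, SE 0.30) and overlapped venetoclax through its replicate 2. Against venetoclax, E2F1 was at −0.18 and E2F2 at −0.46 with all libraries, and at −0.36 and −0.79 without venetoclax replicate 2. Without venetoclax replicate 1 they were at 0.05 and −0.01. CCNE2, a cyclin that drives entry into S phase, had 29.4 and 35.4 CPM with the combination, against 42.3 and 57.4 CPM with venetoclax and 34.4 and 35.9 CPM with CSA. It lay below venetoclax (−0.62, SE 0.21, and −0.38 without venetoclax replicate 2) and overlapped CSA (−0.12, SE 0.21). CCNE2 shares 1629 of its 4397 exon bases with INTS8 on the opposite strand, whose fold change against venetoclax was −0.26 (SE 0.23). CCNE1, the other cyclin E gene, was near 0 in both comparisons (−0.12, SE 0.17, and −0.15, SE 0.17).

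The last 4 genes act on chromatin, histone messages and the checkpoint, with medians of −0.34 against venetoclax and −0.24 against CSA. CHAF1A, the largest subunit of the chromatin assembly factor that places histones behind the fork, had 189 and 207 CPM with the combination, against 260.3 and 230.2 CPM with venetoclax and 236 and 244 CPM with CSA. The combination lay below every other library (−0.31, SE 0.15, and −0.28, SE 0.15). UHRF1, which carries DNA methylation through replication, had 274 and 238 CPM with the combination, against 387 and 249 CPM with venetoclax and 373 and 337 CPM with CSA. It lay below CSA (−0.47, SE 0.24) and overlapped the low venetoclax replicate 2 (−0.31, SE 0.24, and −0.59 without it). CLSPN, claspin, which relays the replication checkpoint to CHK1, had 57.3 and 67.4 CPM with the combination, against 82.0 and 176 CPM with venetoclax and 67.6 and 76.0 CPM with CSA. Its fold change of −1.05 (SE 0.36) against venetoclax was the lowest of the 42, rested on venetoclax replicate 2, and was −0.39 without it. SLBP, which binds histone messages, had 126 and 129 CPM with the combination, against 123 and 205 CPM with venetoclax and 108 and 133 CPM with CSA. Only venetoclax replicate 2 stood out (−0.37, SE 0.27, and 0.05 without it), and against CSA the difference was 0.08 (SE 0.27).

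Between the single agents, 26 of the 42 genes were higher with venetoclax than with CSA, beside 6317 of all 12690 genes. The median log2 fold change was 0.03, which turned to −0.23, beside −0.31 for all genes, when scaled by library size alone. At an unadjusted p under 0.05, 2 of 42 (4.76%) were higher with venetoclax, MCM10 and POLE2, beside 2.34% of all genes, and 0 were lower, beside 2.46%. DESeq2 called 0 of the 42, and 0.496% of all genes. Both venetoclax libraries lay above both CSA libraries for 16 of the 42 (38.1%), beside 20.8% of all genes, below them for CDT1 alone (2.38%), beside 19.9%, and 25 overlapped. Without venetoclax replicate 2, the median was 0.13 and 37 of 42 were higher, beside 6268 of all 12940 genes. Without venetoclax replicate 1, the median was 0.04 and 23 of 42 were higher, beside 6370 of all 12956 genes.

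Some members share exon bases with other genes, where counts may be split or joined. On the opposite strand, MCM7 shares 392 of its 4386 exon bases with AP4M1 and FEN1 shares 166 of its 2478 with TMEM258, both at lower CPM than the member in every library. On the same strand, POLA2 shares 2012 of its 5726 exon bases and RRM2 shares 1077 of its 5323 with annotated genes that have no row in the count table.

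The venetoclax libraries differed from each other along the base composition of the genes. Over the 42 genes, the log2 ratio of venetoclax replicate 2 to replicate 1 had an SD of 0.57, against 0.22 between the combination libraries and 0.31 between the CSA libraries. That ratio followed the GC content of the longest transcript with a Pearson r of −0.65 and a Spearman rho of −0.75 over the 42 genes, and −0.54 and −0.59 over 12667 nuclear genes. These points are genes of the same 2 libraries and not replicates. CLSPN, POLE2 and SLBP were higher in venetoclax replicate 2, while POLD1, TK1 and GINS4 were lower. Once each library's trend with GC content was removed, the SD of the ratio was 0.44. Several ratios did not shrink, among them those of GINS4 and SLBP, at −1.93 and 0.83 against −1.89 and 0.73 before. The ratios of MCM6 and POLA2 went from −0.045 and 0.0015 to −0.34 and 0.30. Those of TK1 and POLD1 shrank, from −0.96 and −1.14 to −0.37 and −0.48. With the trend removed, the medians of the 42 genes were −0.40 against venetoclax and −0.28 against CSA. At an unadjusted p under 0.05, 24 of the 42 were then lower against venetoclax, beside 7.52% of all genes, and 14 against CSA, beside 2.89%. After adjustment edgeR called 0 of the 42 in each, beside 0.292% and 0.0% of all genes. The part of the GC trend in single genes was not tested beyond this.

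**Figure D5:**
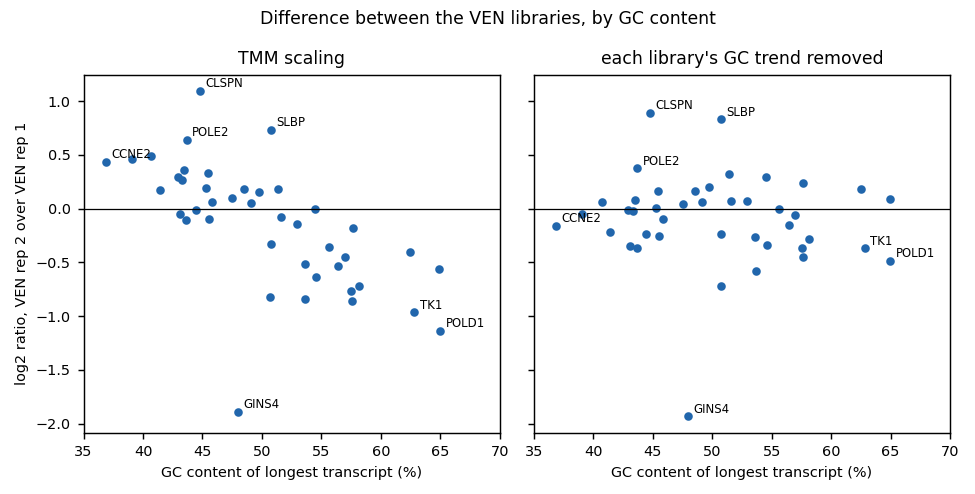
Log2 ratio of venetoclax replicate 2 to replicate 1 (vertical) against the GC content of each gene's longest transcript (horizontal, percent), for the 42 genes, with TMM scaling (left) and with each library's GC trend removed (right). The points slope down on the left, with a Pearson r of −0.65, and are nearly level on the right, with −0.09, where GINS4, CLSPN and SLBP still stand apart.

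Other genes of replication and of the cell cycle were read in the same fits. Of 54 further replication genes, 41 were lower in the combination libraries than in those of venetoclax, with a median of −0.23, or −0.17 without venetoclax replicate 2. At an unadjusted p under 0.05 there were 8 lower (14.8%), beside 5.48% of all genes. Against CSA 36 were lower, with a median of −0.12, and 1 of 54 (1.85%) was lower at that level, beside 1.69% of all genes. The 4 with the smallest p against venetoclax were TICRR, ATAD5, TOP2A and MCM8, with fold changes of −0.87, −1.14, −0.80 and −0.70, which were −0.60, −0.60, −0.45 and −0.39 without venetoclax replicate 2. Of 28 tested cell cycle regulators 19 were lower than with venetoclax (median −0.27), and those with the smallest p were E2F7 (−1.15), MYBL2 (−0.99), E2F8 (−1.17) and CCNA2 (−0.67). Without venetoclax replicate 2 the median of these regulators was −0.17, with 21 lower, and the 4 genes were at −1.02, −0.71, −0.78 and −0.36. Of 20 checkpoint and repair genes 19 were lower (median −0.32), and of 25 genes of mitosis 24 were lower (median −0.46). Without that library the counts were 17 of 20 (median −0.22) and 23 of 25 (median −0.29). The full fit put 5 regulators (17.9%), 7 checkpoint genes (35%) and 9 mitosis genes (36%) lower against venetoclax at an unadjusted p under 0.05. These shares stood beside 38.1% of the 42 replication genes and 5.48% of all genes. Against CSA the counts were 2 (7.14%), 0 and 0, beside 11.9% of the 42 and 1.69% of all genes. Against CSA the medians of these last 3 lists were −0.08, −0.08 and −0.05, nearer to 0 than the −0.27 of the 42 replication genes, a gap between lists that was not tested. None of these genes passed edgeR's adjusted test in either comparison.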

How the data were processed

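RNA-seq measured messenger RNA in 6 libraries of MV4-11 cells, 2 per treatment, grouped by their titles. Trizol RNA and the KAPA RNA HyperPrep library kit were used, per the labels' protocols. A treatment entry naming gavage was set aside, since the cells were cultured. The tools STAR, RSEM and DESeq2 and the build hg38 are named per the submitters' processing notes, without their roles, and strand-specific counting is not stated in the sources used here. The authors deposited raw counts, whole numbers with 1 value per gene and library, and 2 columns that no label assigns to a sample were not used.

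Symbols were found for 20148 of the 20263 gene identifiers, and GENCODE release 29, the source of coordinates and exon lengths, held 20224. Counts were filtered with filterByExpr, scaled by TMM and compared with the two-sided quasi-likelihood test of edgeR 4.0.16 (R 4.3.3, glmQLFit with robust set, 1 fit of all 6 libraries by group, 3 residual degrees of freedom). P-values were adjusted by Benjamini-Hochberg over all 12690 genes, with a threshold of 0.05. The fit was also run on simulated counts, whose results are not given here. Alternatives were DESeq2 1.42.0, limma 3.58.1 with voom and library quality weights, other scalings and filters, removal of each library's loess trend with GC content (span 0.3), a replicate block, and leaving out each library.

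The members and gene lists were chosen with earlier results of these data known, so no p is given for any list. All 42 members are named. Values in every library are given for the 3 members of each role group with the smallest p, the most abundant one and any with a positive fold change in either comparison with the combination. TK1 and POLD1, which fall outside that rule, were added after their values were seen. Further genes are the 4 with the smallest p of a list.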

Additional observations from a re-analysis of the deposited data

How the results depend on the processing

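Each alternative was run on all 3 comparisons. Median-of-ratios scaling and removal of mitochondrially encoded genes kept the direction and the side of the threshold of every member in both comparisons with the combination. With library size as the only scaling, the all-gene medians were 0.26 against venetoclax, −0.04 against CSA and −0.31 between venetoclax and CSA. The members' medians were then −0.13 against venetoclax and −0.23 for venetoclax against CSA. Against venetoclax 31 of the 42 members were lower with this scaling, beside 3036 of all 12690 genes. In the comparisons with the combination, 1 and 0 members were lower at an unadjusted p under 0.05, beside 1.12% and 0.678% of all genes. Separate libraries were found for 5 members against venetoclax and for 4 for venetoclax against CSA. The share of all genes with separate libraries was not counted with this scaling, so these 2 counts have no background. Against venetoclax this scaling also turned CCNE1 to 0.13, CDC6 to 0.061, E2F1 to 0.048, MCM6 to 0.072, POLD1 to 0.11, POLE to 0.10 and PRIM1 to 0.12, and against CSA PRIM1 to −0.0026. With 1 count as the only filter, edgeR called 15, 4 and 2 genes in the 3 comparisons, with no member among them.

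DESeq2 called 311, 60 and 63 genes in the 3 comparisons, 3 members among the first. DESeq2 without venetoclax replicate 2 called 490, 256 and 107 genes, with 12 members and 8 members in the first and second. It put 21 members lower at an unadjusted p under 0.05 against CSA, beside 4.52% of all genes, gave venetoclax against CSA a median of 0.13, and turned GINS4 to −0.35, PRIM1 to 0.055, SLBP to 0.049 and UNG to −0.035 against venetoclax. Limma with quality weights called 49 genes against CSA and no member, put 21 members lower there at an unadjusted p under 0.05, beside 6.26% of all genes, and turned POLD1 to 0.039 against venetoclax. With the GC trend removed, 37 genes were called against venetoclax, 14 members were lower against CSA at an unadjusted p under 0.05, beside 2.89% of all genes, the venetoclax against CSA median was 0.11, and CDT1 turned to 0.0095 and PRIM1 to −0.060 against CSA.

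Replicates of different groups share only a number, and the deviations of replicate 1 correlated at 0.16 to 0.25 between groups. With the replicate block edgeR called 0 members in any comparison, put 17, 8 and 1 members lower at an unadjusted p under 0.05, beside 7.29%, 2.31% and 5.48% of all genes, and turned POLD1 to 0.029 against venetoclax.

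When each library was left out, members called ranged from 0 to 18 against venetoclax and from 0 to 17 for venetoclax against CSA, and genes called from 0 to 3426, from 0 to 24 against CSA, and from 0 to 4385. The highest counts for both venetoclax comparisons came without venetoclax replicate 1, in a fit that tested 12956 genes. Calls were common among all genes in that fit, which rests on a single venetoclax library. Members lower at an unadjusted p under 0.05 ranged from 3 to 26, from 0 to 21, and from 0 to 11, beside 2.12% to 21.4%, 0.673% to 5.71% and 0.903% to 24.3% of all genes, and the median for venetoclax against CSA from 0.030 to 0.13. Against venetoclax, members that changed sign ranged from −0.25 to 0.0076 for CCNE1, −0.36 to 0.045 for E2F1, −0.68 to 0.16 for FEN1, −0.35 to 1.56 for GINS4, −0.52 to 0.19 for MCM2, −0.58 to 0.28 for MCM7, −0.50 to 0.64 for POLD1, −0.29 to 0.062 for POLE, −0.44 to 0.059 for PRIM1, −0.69 to 0.052 for SLBP, −0.85 to 0.11 for TK1, −0.59 to 0.043 for UHRF1 and −0.23 to 0.79 for UNG. Against CSA they ranged from −0.25 to 0.010 for CCNE2, −0.20 to 1.12 for GINS4, −0.44 to 0.37 for ORC6, −0.044 to 0.13 for PRIM1, −0.067 to 0.24 for SLBP and −0.98 to 0.084 for UNG. The cause of these shifts was not tested. With 2 libraries per group, the standard errors of members against venetoclax ran up to 0.68, and no member's difference was detectable after adjustment in edgeR with all 6 libraries.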
